A study of Rattus norvegicus with 15 samples.

Results

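The genes described here belong to PPARalpha and fatty acid oxidation. They are a list of 33 genes chosen by name: the nuclear receptor PPARalpha itself, the proteins that bind, activate, carry and oxidise fatty acids in mitochondria and peroxisomes, and genes that the receptor is known to induce. They were matched by gene symbol in the platform annotation, using probe sets with 1 gene and, where a gene had several, the probe set with the highest mean over all 15 arrays. Earlier results of these data were known when the list was drawn up. Member counts set beside all genes below therefore describe the list and do not test it independently. Of the 33 genes, 31 were measured, among 14506 genes in all. The other 2, Acaa1a (a peroxisomal thiolase) and Decr2 (the peroxisomal dienoyl-CoA reductase), lie on probe sets that carry several genes and were left out.

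Primary rat hepatocytes, freshly isolated and allowed to adhere for 24 h in collagen-coated microfluidic biochips, were perfused for 24 h with medium holding solvent or flutamide, a nonsteroidal antiandrogen known for liver toxicity. Total RNA was measured on 15 Affymetrix rat arrays. There were 5 arrays of the DMSO solvent group, 6 of flutamide at 10 µM and 4 of flutamide at 100 µM, and all of them received the same culture and the same duration of perfusion. The labels name no strain, sex or donor animal and do not say that biochips came from separate isolations, so the p-values below cover only the spread among these arrays, which may be technical. Sample titles are numbered from 10 to 16 (number series 1) or from 20 to 27 (number series 2). DMSO, 10 µM and 100 µM have 2, 3 and 2 arrays in series 1 and 3, 3 and 2 in series 2. The labels do not say what the numbers stand for. Arrays are named below by group and title number, and values listed for a group follow that number.

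PPARalpha is a ligand-activated receptor that pairs with RXR and, when fatty acids or fibrates bind it, induces the genes of fatty acid breakdown in liver. Long chains are bound in the cytosol, activated to acyl-CoA, carried into the mitochondrion on carnitine and shortened in repeated rounds of dehydrogenation, hydration, dehydrogenation and thiolysis, while electrons from the first step pass through the electron transfer flavoprotein. Very long chains start in the peroxisome, double bonds need auxiliary enzymes, and the liver turns much of the resulting acetyl-CoA into ketone bodies.

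The receptor binds a direct repeat of the unit AGGTCA, so 2 copies of these 6 letters with 1 base of any kind between them were searched on both strands of RefSeq promoter windows of assembly GRCr8, each 250 bases before to 50 after 1 annotated start of a gene. Windows were found for 26 of the 31 members, and no window was used for Vnn1, Decr1, Acadl, Ech1 or Acaa2. Of the 12 fixed letters, at most 1 differed in 2 members, Acadvl and Fabp1, and in 0.439% of all 33469 windows. At most 2 differed in 6 members (these and Crat, Echs1, Etfa and Slc25a20) and in 3.77% of all windows. Hadha and Hadhb, whose products form the mitochondrial trifunctional protein, have windows on opposite strands that share 200 bases and hold the same 13-base best match, with 3 letters differing. The 250 bases before the start are shown for the 2 closest matches and for the window that Hadha shares with Hadhb. They lie at chr10:55236706-55236955 (minus strand) for Acadvl, at chr4:104749090-104749339 (plus strand) for Fabp1 and at chr6:31907551-31907800 (plus strand) for Hadha, and capitals mark the best match, which in Fabp1 reads as the motif on the opposite strand.
Acadvl: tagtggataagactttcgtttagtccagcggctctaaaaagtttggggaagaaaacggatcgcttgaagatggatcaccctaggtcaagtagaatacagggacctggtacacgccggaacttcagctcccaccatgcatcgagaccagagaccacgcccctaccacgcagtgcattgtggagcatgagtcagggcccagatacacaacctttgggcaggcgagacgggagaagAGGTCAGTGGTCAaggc
Fabp1: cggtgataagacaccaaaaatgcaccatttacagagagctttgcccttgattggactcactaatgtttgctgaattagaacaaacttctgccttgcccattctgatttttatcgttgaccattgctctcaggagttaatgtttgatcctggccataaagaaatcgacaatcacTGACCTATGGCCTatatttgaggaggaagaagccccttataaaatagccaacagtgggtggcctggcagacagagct
Hadha: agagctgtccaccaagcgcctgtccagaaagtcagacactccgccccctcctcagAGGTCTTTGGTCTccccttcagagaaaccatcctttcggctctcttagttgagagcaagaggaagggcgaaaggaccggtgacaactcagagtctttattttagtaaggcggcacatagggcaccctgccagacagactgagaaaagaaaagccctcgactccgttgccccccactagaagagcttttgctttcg
A match is a description of these letters, and the arrays hold no measurement of receptor binding. Of the members with the largest differences below, Vnn1 had no window, and the best match of Hadh differed in 3 letters.

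Of the 10 hepatocyte markers, Alb, Ttr, Serpina1, Tf, Apoa1 and Fgb lay at or above the 99.1th percentile of all genes, Tat at the 96.9th, and Hnf4a, Cps1 and Arg1 at the 81.3th, 79.0th and 77.2th. Array medians were 5.38 to 5.51 on the log2 scale, and pairs of arrays correlated at 0.9549 to 0.9939 over all genes. At 10 µM, array 23 correlated least with the other arrays (median 0.9625) and had a limma quality weight of 0.205. The next lowest weights were 0.427 (100 µM array 15) and 0.549 (10 µM array 24). Array 23 also held the highest summed linear level (2 to the power of the log2 level) of 6 of the 7 marker lists: hepatocyte (37369 against 26891 to 32936 in the other arrays), macrophage (2902 against 757 to 2158), stellate cell (579 against 467 to 532), endothelial (167 against 94 to 142), lymphocyte (146 against 107 to 136) and adipocyte markers (528 against 143 to 234). Among the adipocyte markers Fabp4 reached a log2 level of 8.35 and Cfd 6.92, each in its highest array, while Adipoq, Lep and Plin1 stayed at or below 5.39. The lowest value of any probe set in any array was 1.8 on the log2 scale, so a marker's level does not by itself show that it was detected. In bulk RNA, fewer cells of a type and less RNA per cell cannot be told apart.

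At 100 µM flutamide most members had a lower group level than in DMSO, although DMSO array 10 (median deviation of the members from their own means -0.20) lay below 100 µM arrays 16, 26 and 27 (0.01, -0.04 and -0.15). Of the 31 members, 27 were lower in value, against 44.3% of all genes, and their median log2 change was -0.39, against 0.02 over all genes. By role, the 5 mitochondrial enzymes of hydration to thiolysis were all lower (median -0.48), as were the 4 auxiliary enzymes (-0.44) and the 3 peroxisomal members (-0.41). The dehydrogenases with electron transfer had a median of -0.28 and activation and transport one of -0.11. Of the targets outside beta-oxidation, Vnn1, Angptl4, Pdk4 and Plin2 had values below 0 and Acot1 a value above 0. Limma called none of the 31 members (0.00% of all genes), a call being an adjusted p below 0.05 after Benjamini-Hochberg correction across the 14506 genes. At an unadjusted p under 0.05, 11 members were lower and 0 higher, against 3.42% and 3.43% of all genes. Within number series 1 the median was -0.04, with 19 lower (44.7% of all genes), 3 of them under 0.05 (Ppara, Etfdh and Hadh, 2.40%). Within series 2 it was -0.46, with 29 lower (46.8%), 13 under 0.05 (4.28%) and 0 called (0.00689%). Without 100 µM array 27 the median over both series was -0.19. Beside this, 10 of the 11 macrophage markers were lower at 100 µM (median -0.34) and 8 of 11 at 10 µM (median -0.15). The 10 hepatocyte markers had overlapping median deviations from their own means. These were -0.06 to 0.10 in the DMSO arrays, -0.14 to 0.27 at 10 µM and -0.17 to 0.05 at 100 µM. The part of either cell type in the members' values was not tested.

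At 10 µM, 24 of the 31 members were lower, against 50.9% of all genes, with a median log2 change of -0.13 against 0.00. Vnn1, Angptl4, Decr1, Eci1, Ech1 and Acot2 were among the members with values further below 0 than at 100 µM. The doses were not set apart by this: 0 members were higher at 100 µM than at 10 µM at an unadjusted limma p under 0.05 (2.65% of all genes). The auxiliary enzymes had the lowest median (-0.47), followed by hydration to thiolysis (-0.20) and the peroxisomal members (-0.18). The dehydrogenases with electron transfer were at -0.10, and activation and transport at -0.08. The targets outside beta-oxidation were mixed, with Vnn1, Angptl4 and Plin2 below 0 and Pdk4 and Acot1 above 0. Limma called 0 members over all genes (background 0.00%), and at an unadjusted p under 0.05 it had 7 lower and 0 higher, against 3.82% and 3.83% of all genes. Within series 1 the median was -0.04, with 17 lower (51.0% of all genes) and 1 under 0.05 (Eci1, 1.99%). Within series 2 it was -0.30, with 25 lower (46.5%) and 10 under 0.05 (7.67%). Both doses were set against the same DMSO arrays, so their values are not independent of each other.

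**Figure D1:**
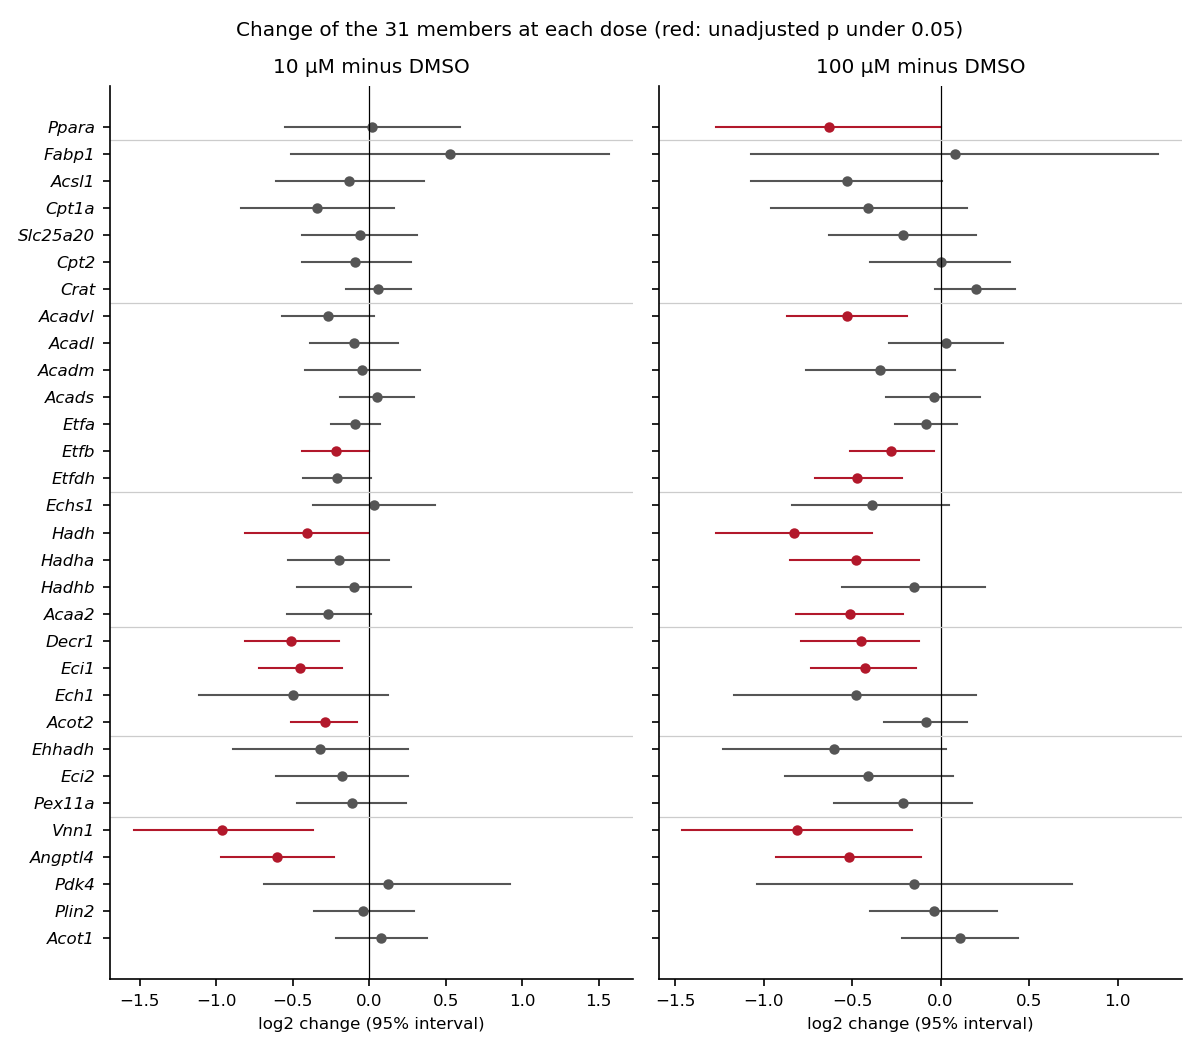
Log2 change of each of the 31 members at 10 µM (left) and 100 µM (right) against DMSO, in order of role, with 95% intervals from limma; red marks an unadjusted p under 0.05. At 10 µM 7 members and at 100 µM 11 members are red, all to the left of 0, and none passed adjustment over all genes.

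Between the doses themselves, 20 of 31 members were lower at 100 µM than at 10 µM, against 43.5% of all genes, with a median of -0.09 against 0.02. None was called by limma (0 of 31, background 0.00%). At an unadjusted p under 0.05, Ppara (-0.66, SE 0.28, adjusted p = 0.930) and Etfdh (-0.25, SE 0.11, adjusted p = 0.930) were lower and 0 members higher, against 2.34% and 2.65% of all genes. In 0 members did every 100 µM array lie below or above every 10 µM array, against 0.324% and 0.503% of all genes.

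Ppara, the receptor, had log2 levels of 7.26 and 7.11 in DMSO arrays 10 and 11 and of 6.62, 6.55 and 6.23 in DMSO arrays 20, 21 and 22. At 10 µM it ranged from 6.47 to 7.31 with a median of 6.76, and at 100 µM it was 5.30, 6.68, 6.77 and 5.81 in arrays 15, 16, 26 and 27. The 100 µM arrays thus split, with 15 and 27 below every other array and 16 and 26 among the rest. The change at 100 µM was -0.63 (SE 0.30, unadjusted p = 0.0496, adjusted p = 0.728), and -0.31 without array 15. At 10 µM it was 0.02 (SE 0.27).

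Activation and transport had median differences of -0.08 at 10 µM and -0.11 at 100 µM, with 4 of 6 members lower at each. Cpt1a, the outer-membrane carnitine palmitoyltransferase that limits entry of long chains, had log2 levels of 7.57, 7.97, 8.70, 8.58 and 8.11 in DMSO arrays 10, 11, 20, 21 and 22, 7.07 to 8.25 (median 7.92) at 10 µM, and 7.80, 8.05, 7.89 and 7.38 at 100 µM. The groups overlapped: DMSO array 10 lay below 3 of the 100 µM arrays. Its change was -0.34 (SE 0.23) at 10 µM and -0.41 (SE 0.26) at 100 µM, and within series 1 it was 0.22 and 0.15. Acsl1, which activates long chains to acyl-CoA, was at -0.13 (SE 0.23) and -0.53 (SE 0.25, unadjusted p = 0.0539, adjusted p = 0.736), and at -0.32 at 100 µM without array 15, where it was lowest (7.33). The carnitine-acylcarnitine carrier Slc25a20 was at -0.06 and -0.21, Cpt2, the inner-membrane transferase, at -0.09 and 0.00, and Crat, which handles short chains, at 0.06 and 0.20 (SE 0.11, adjusted p = 0.776), the largest value above 0 among the members at 100 µM. Fabp1, the liver fatty acid binding protein, had the largest SD of the members in DMSO (0.88, n = 5) and at 10 µM (1.24, n = 6): DMSO array 10 was at 5.15, the other 4 DMSO arrays at 6.81 to 7.53, and 10 µM arrays 23 and 24 at 8.73 and 8.57. Its changes of 0.53 (SE 0.48) and 0.08 (SE 0.54) had 95% intervals that included 0, and the first was 0.26 without array 23.

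Among the acyl-CoA dehydrogenases, which start each round, Acadvl was the 1 with an unadjusted p under 0.05 at 100 µM. Acadvl, which acts on very long chains, had log2 levels of 8.46 and 8.41 in DMSO arrays 10 and 11, 9.19, 9.32 and 9.11 in DMSO arrays 20, 21 and 22, 8.41 to 8.96 (median 8.53) at 10 µM, and 7.93, 8.58, 8.55 and 8.25 at 100 µM. The 3 DMSO arrays of series 2 lay above every other array, and the other 2 DMSO arrays within the range of the flutamide arrays. Its change was -0.53 at 100 µM (SE 0.16, adjusted p = 0.649), and -0.18 within series 1 and -0.80 within series 2. Acadm, for medium chains, was at -0.34 (SE 0.20) at 100 µM and -0.05 at 10 µM. Acadl, for long chains, was at 0.03 and -0.10, and Acads, for short chains, at -0.04 and 0.05, each within 1 standard error of 0.

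Etfdh and Etfb, which hand electrons from these dehydrogenases to the respiratory chain, were lower at 100 µM in both number series. Etfdh, the membrane-bound oxidoreductase, had log2 levels of 8.19, 8.38, 8.72, 8.45 and 8.28 in the DMSO arrays, 7.96 to 8.32 (median 8.21) at 10 µM, and 7.67, 8.08, 8.08 and 7.89 at 100 µM. Every 100 µM array lay below every DMSO array, while the 10 µM arrays overlapped both. The change at 100 µM was -0.47 (SE 0.11, 1.38-fold lower, unadjusted p = 0.00119, adjusted p = 0.510), with -0.41 in series 1 and -0.50 in series 2, and at 10 µM it was -0.21 (SE 0.10, adjusted p = 0.668). Etfb, the beta subunit of the electron transfer flavoprotein, had levels of 9.50, 9.54, 9.47, 9.74 and 9.51 in DMSO, 9.15 to 9.57 (median 9.32) at 10 µM, and 9.01, 9.42, 9.45 and 9.25 at 100 µM. Here too the 100 µM arrays all lay below the DMSO arrays, by as little as 9.45 against 9.47. The change was -0.28 (SE 0.11, adjusted p = 0.698), -0.31 and -0.22 within the series, and -0.17 without 100 µM array 15. At 10 µM it was -0.22 (SE 0.10, unadjusted p = 0.0465, adjusted p = 0.642). Etfa, the alpha subunit, was at -0.09 (SE 0.07) and -0.08 (SE 0.08).

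Hadh, the 3-hydroxyacyl-CoA dehydrogenase for short and medium chains, had the largest difference of any member at 100 µM. Its log2 levels were 6.88, 7.50, 7.62, 7.44 and 7.53 in the DMSO arrays, 6.69 to 7.76 (median 6.82) at 10 µM, and 6.06, 6.87, 6.73 and 6.48 at 100 µM. All 4 arrays at 100 µM lay below the 5 DMSO arrays, although DMSO array 10 (6.88) and 100 µM array 16 (6.87) were nearly equal. The change was -0.83 (SE 0.21, 1.78-fold lower, unadjusted p = 0.00125, adjusted p = 0.510), with -0.73 in series 1 and -0.92 in series 2. Over the alternative settings and single arrays left out, the value nearest 0 was -0.71. At 10 µM it was -0.41 (SE 0.19, adjusted p = 0.641) and 5 of the 6 arrays lay at or below 6.92, whereas array 23 was at 7.76, above all DMSO arrays; without that array the change was -0.56. Hadh, Etfdh and Etfb were the members with no overlap between 100 µM and DMSO, 3 of 31, where 0.931% of all genes had every 100 µM array below the DMSO arrays, and 0 members had every 100 µM array above them, against 1.13%. No member (0 of 31) had all 10 µM arrays below DMSO, against 0.221% of all genes, or all above it, against 0.414%.

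The other enzymes of hydration to thiolysis had a lower change against DMSO at 100 µM within series 2 than within series 1, without a call for any of them. Hadha, the alpha subunit of the trifunctional protein, had log2 levels of 9.13 and 9.52 in DMSO arrays 10 and 11, 10.09, 10.13 and 10.08 in DMSO arrays 20, 21 and 22, 9.29 to 9.88 (median 9.52) at 10 µM, and 9.05, 9.36, 9.52 and 9.20 at 100 µM. The series 2 DMSO arrays again lay above all others. Its change at 100 µM was -0.48 (SE 0.17, adjusted p = 0.663), -0.13 within series 1 and -0.74 within series 2, and -0.30 with the mean of its 2 probe sets. Hadhb, the beta subunit, was at -0.10 (SE 0.17) and -0.15 (SE 0.19). Acaa2, the mitochondrial thiolase, had log2 levels of 8.91, 9.23, 9.77, 9.95 and 9.86 in DMSO, 9.08 to 9.40 (median 9.25) at 10 µM and 8.67, 8.99, 9.06 and 9.25 at 100 µM, so that the series 2 DMSO arrays were once more the highest. Its changes were -0.27 (SE 0.13) at 10 µM, or -0.16 without the 3 arrays of lowest quality weight, and -0.51 (SE 0.14, adjusted p = 0.628) at 100 µM, or -0.24 and -0.70 within the series. Echs1, the short-chain enoyl-CoA hydratase, was at 0.03 (SE 0.19) and -0.39 (SE 0.21), and the latter was -0.14 without 100 µM array 27, where it was lowest (6.17).

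**Figure D2:**
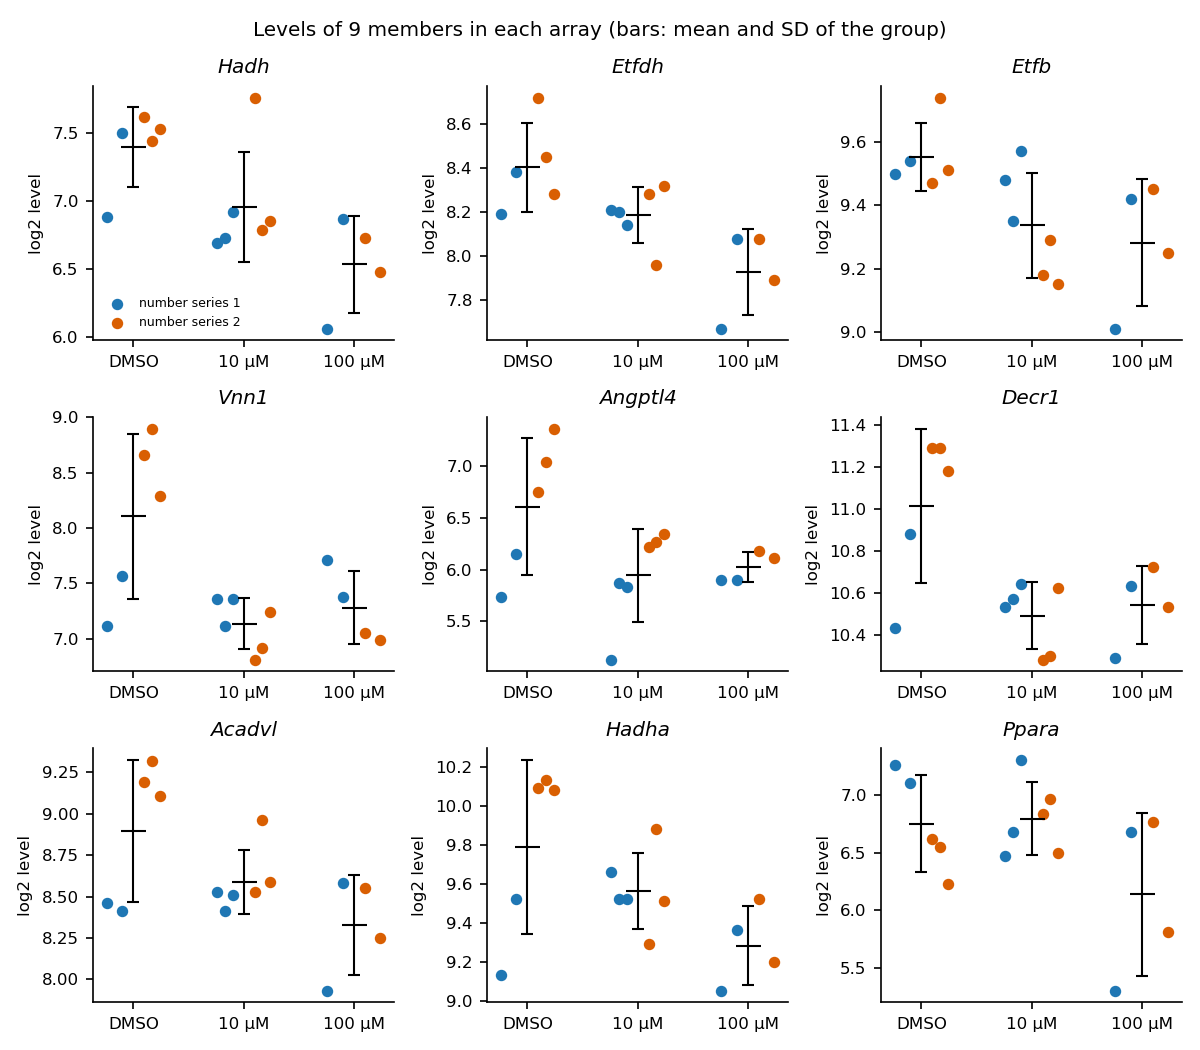
Log2 level of 9 members in each array, by group, with blue points for number series 1 and orange for series 2; bars are the group mean and SD (DMSO n = 5, 10 µM n = 6, 100 µM n = 4). Hadh, Etfdh and Etfb have every 100 µM array below the DMSO arrays, while for Vnn1, Angptl4, Decr1, Acadvl and Hadha the orange DMSO points stand above all other arrays.

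The 4 auxiliary enzymes were lower in value at both doses. Decr1, the mitochondrial dienoyl-CoA reductase needed for unsaturated chains, had log2 levels of 10.43, 10.88, 11.29, 11.29 and 11.18 in DMSO, 10.28 to 10.64 (median 10.55) at 10 µM, and 10.29, 10.63, 10.72 and 10.53 at 100 µM. DMSO array 10 lay among the flutamide arrays and the other 4 above all of them. The change at 10 µM was -0.51 (SE 0.14, adjusted p = 0.375), with -0.07 and -0.86 within the series and -0.32 once the 3 arrays of lowest weight were removed. At 100 µM it was -0.45 (SE 0.16, adjusted p = 0.663), with -0.19 and -0.63 within the series. Eci1, which moves double bonds into place for the spiral, had levels of 9.39, 9.47, 10.20, 10.22 and 9.62 in DMSO, 9.11 to 9.70 (median 9.26) at 10 µM and 9.15, 9.38, 9.41 and 9.30 at 100 µM. DMSO arrays 20 and 21 were the highest, and the rest of the groups overlapped. Its change was -0.45 at 10 µM (SE 0.13, adjusted p = 0.375) and -0.43 at 100 µM (SE 0.14, adjusted p = 0.649), with -0.28 and -0.57, and -0.16 and -0.66, within the series. Ech1, a dienoyl-CoA isomerase, ranged from 7.93 to 9.05 in DMSO and from 7.16 to 8.78 at 100 µM and was at -0.50 (SE 0.29) and -0.48 (SE 0.32), with 0.34 and -1.18 at 100 µM within the series. Acot2, a mitochondrial acyl-CoA thioesterase, had log2 levels of 8.08, 8.42, 8.82, 8.83 and 8.87 in DMSO, 8.19 to 8.44 (median 8.26) at 10 µM and 8.31, 8.46, 8.58 and 8.63 at 100 µM. It was at -0.29 (SE 0.10, unadjusted p = 0.0102, adjusted p = 0.477 by limma) at 10 µM and -0.08 (SE 0.11) at 100 µM. The Acot2 means of DMSO and 10 µM were 8.25 and 8.24 within series 1, and 8.84 and 8.33 within series 2.

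All 3 measured peroxisomal members were lower in value at both doses. Ehhadh, the peroxisomal bifunctional enzyme and a classical PPARalpha target, had log2 levels of 7.35, 7.63, 7.46, 7.31 and 8.13 in DMSO, 6.94 to 7.54 (median 7.20) at 10 µM, and 5.73, 7.40, 7.63 and 7.03 at 100 µM. Only 100 µM array 15 lay far below the rest, and the change of -0.60 (SE 0.29, adjusted p = 0.745) was -0.23 without it. Eci2, a peroxisomal isomerase, reached 9.13 and 9.15 in DMSO arrays 20 and 21 against 7.76 to 8.19 at 100 µM, but 7.77 in DMSO array 10, and was at -0.18 (SE 0.20) and -0.41 (SE 0.22), with 0.16 and -0.90 at 100 µM within the series. Pex11a, which takes part in peroxisome division, was at -0.11 (SE 0.17) and -0.21 (SE 0.18), and at 10 µM -0.28 without array 23, where its level was highest (9.05).

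Among targets outside beta-oxidation, Vnn1 differed most. Vnn1, a pantetheinase that recycles vitamin B5 from the CoA pathway, had log2 levels of 7.12 and 7.57 in DMSO arrays 10 and 11, 8.66, 8.90 and 8.29 in DMSO arrays 20, 21 and 22, 6.81 to 7.36 (median 7.18) at 10 µM, and 7.71, 7.38, 7.05 and 6.99 at 100 µM. The 3 DMSO arrays of series 2 stood above all 12 others, among which the DMSO and flutamide arrays overlapped. Over all arrays the change was -0.96 at 10 µM (SE 0.27, adjusted p = 0.384) and -0.81 at 100 µM (SE 0.30, adjusted p = 0.682). Within series 2 alone Vnn1 fell at 10 µM by 1.63 on the log2 scale (SE 0.18, limma adjusted p = 0.0475, in 3 of 3 arrays), the 1 member called there, where 0.0483% of all genes were called. Over the alternatives at 10 µM the lowest adjusted p of any member ran from 0.0475 to 0.896. At 100 µM it was -1.60 in series 2 (SE 0.20, adjusted p = 0.131) and 0.20 in series 1.

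Angptl4, an inhibitor of lipoprotein lipase, had log2 levels of 5.74 and 6.15 in DMSO arrays 10 and 11, 6.75, 7.04 and 7.36 in DMSO arrays 20, 21 and 22, 5.13 to 6.34 (median 6.05) at 10 µM, and 5.90, 5.90, 6.18 and 6.11 at 100 µM. As with Vnn1, the series 2 DMSO arrays lay above all others. Its change at 10 µM was -0.33 within series 1 and -0.78 within series 2, and at 100 µM it was -0.04 and -0.91. Over all arrays the changes were -0.60 (SE 0.17, adjusted p = 0.399) and -0.52 (SE 0.19, adjusted p = 0.682). Pdk4, which shuts off pyruvate oxidation when fatty acids are burnt, ranged from 9.17 to 11.09 in DMSO and reached 12.27 in 10 µM array 23, and its changes were 0.12 (SE 0.37) and -0.15 (SE 0.41), with -0.23 at 10 µM without array 23. Plin2, the lipid droplet coat protein, lay at the 99.2th percentile of all genes and was at -0.04 at both doses (SE 0.15 and 0.17). Acot1, a cytosolic thioesterase, was at the 4.29th percentile with levels of 2.82 to 3.54, and no background value was used to say whether it was detected. Acot1 and Acot2 are near-identical copies, but their probe sets read far apart, with Acot2 at 8.08 to 8.87. Whether the Acot2 values hold signal from Acot1 was not tested. At its low level, the Acot1 changes of 0.08 and 0.11 are uncertain.

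**Figure D3:**
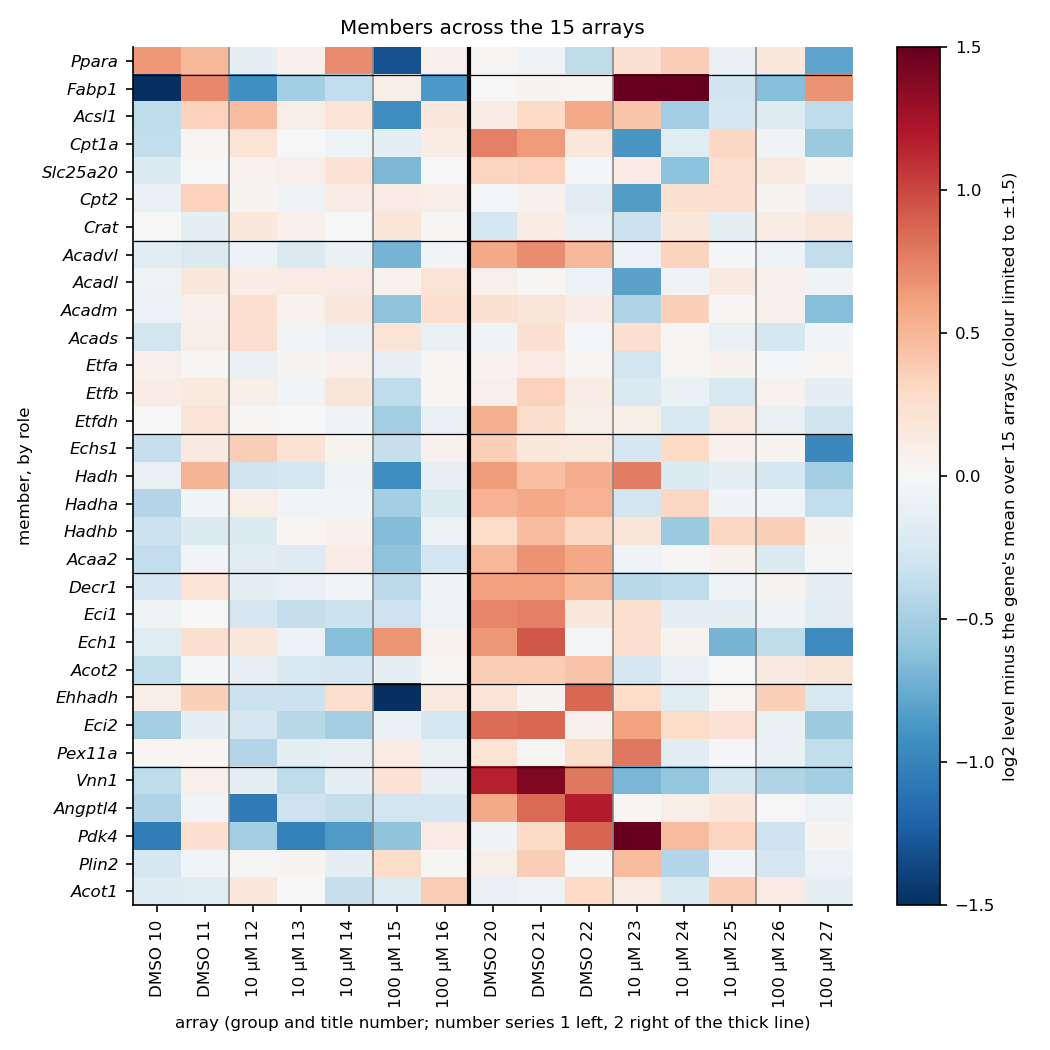
Log2 level of each of the 31 members in each array minus that gene's mean over the 15 arrays, with members in order of role and arrays in order of number series and group (colour limited to ±1.5). The 3 DMSO arrays of series 2 (20, 21 and 22) are above the mean for most members (5, 2 and 8 of 31 lie below), against 24 and 11 of 31 below in DMSO arrays 10 and 11.

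The DMSO arrays of the 2 number series were compared with each other after this pattern had been seen, so the comparison describes it and does not test it independently. The members' median deviation from their own means over 15 arrays was 0.28, 0.34 and 0.15 in DMSO arrays 20, 21 and 22, with 5, 2 and 8 of 31 below their mean. It was -0.20 and 0.07 in DMSO arrays 10 and 11 (24 and 11 below), -0.10 to 0.09 at 10 µM, and -0.31, 0.01, -0.04 and -0.15 in 100 µM arrays 15, 16, 26 and 27. In series 2, 27 of 31 members were higher in DMSO than in series 1, against 48.3% of all genes, with a median of 0.34 against -0.01. Vnn1 was higher by 1.27 (SE 0.20, 2.41-fold, limma adjusted p = 0.0220, in 3 of 3 arrays), the 1 member called, where 0.248% of all genes were called. That call rested on few arrays. It was lost without DMSO array 10 (lowest adjusted p of any member 0.371), 11 (0.0642), 20 (0.0986) or 21 (0.0780), and 2 members were called without DMSO array 22, 10 µM array 12, or 100 µM array 15 or 16 and 3 without 10 µM array 23. Where 1 DMSO array of series 1 is left, limma takes it to vary like the other groups. Leaving out the 3 arrays of lowest quality weight, or weighting all arrays by quality, called 5 members: Vnn1, Acaa2, Acadvl, Acot2 and Hadha. At an unadjusted p under 0.05, 11 members were higher and 0 lower, against 5.36% and 3.52% of all genes. Next to Vnn1 stood Acaa2 (0.79, SE 0.14, adjusted p = 0.0537), Acot2 (0.59, SE 0.12, adjusted p = 0.0849) and Angptl4 (1.11, SE 0.22, adjusted p = 0.0892).

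In 15 of the 31 members every series 2 DMSO array lay above both series 1 DMSO arrays, against 15.6% of all genes. Ppara went the other way, at -0.72 (SE 0.38, adjusted p = 0.660), and it was the 1 member with every series 2 DMSO array below both others, against 14.9% of all genes. By role, the median was 0.77 in the targets outside beta-oxidation, 0.61 in hydration to thiolysis and 0.59 in the auxiliary enzymes, with all 14 genes of these roles higher, and 0.14 in the dehydrogenases with electron transfer. Beside this, the 4 measured endothelial markers were all higher in the series 2 DMSO arrays (median 0.49), 8 of the 11 macrophage markers were (median 0.32, range -2.69 to 0.83), and the 10 hepatocyte markers had a median of 0.00; the part of these cells in the result was not tested.

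In the flutamide groups the medians of the same comparison were nearer 0, and whether they differed from that of DMSO was tested only gene by gene. At 10 µM the median of series 2 minus series 1 was 0.01, with 17 members higher against 54.1% of all genes and 0 called by limma (background 0.0551%). At an unadjusted p under 0.05, 4 were higher and 0 lower, against 4.71% and 8.16%. These 4 were Pdk4 (1.74), Fabp1 (1.73), Eci2 (0.77) and Angptl4 (0.67). Every series 2 array lay above every series 1 array for 6 members, against 8.27% of all genes, and below for 1, Etfb, against 8.29%. At 100 µM the median was 0.10 with 19 members higher, against 47.2% of all genes, and 0 called (background 0.0827%). At an unadjusted p under 0.05 Hadhb was higher (0.57) and Ech1 (-1.03) and Vnn1 (-0.53) lower, against 2.67% and 3.56% of all genes. Every series 2 array at 100 µM lay above both series 1 arrays for 5 members (Slc25a20, Hadhb, Acaa2, Acot2 and Angptl4) and below for 4 (Cpt2, Ech1, Vnn1 and Plin2), against 14.2% and 18.0% of all genes. Over all 3 groups together the median was 0.14, with 20 members higher, against 50.8% of all genes. Limma called 0 members for series 2 against series 1 (background 0.545%), with 10 at an unadjusted p under 0.05 and higher, against 4.73%, and 0 lower, against 6.23%. Of these Angptl4 had the lowest adjusted p (0.70, SE 0.15, adjusted p = 0.0564), and it passed with array quality weights (0.0367) and with dim genes left out (0.0416), the lowest adjusted p of any member running from 0.0367 to 0.124 over the alternatives.

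**Figure D4:**
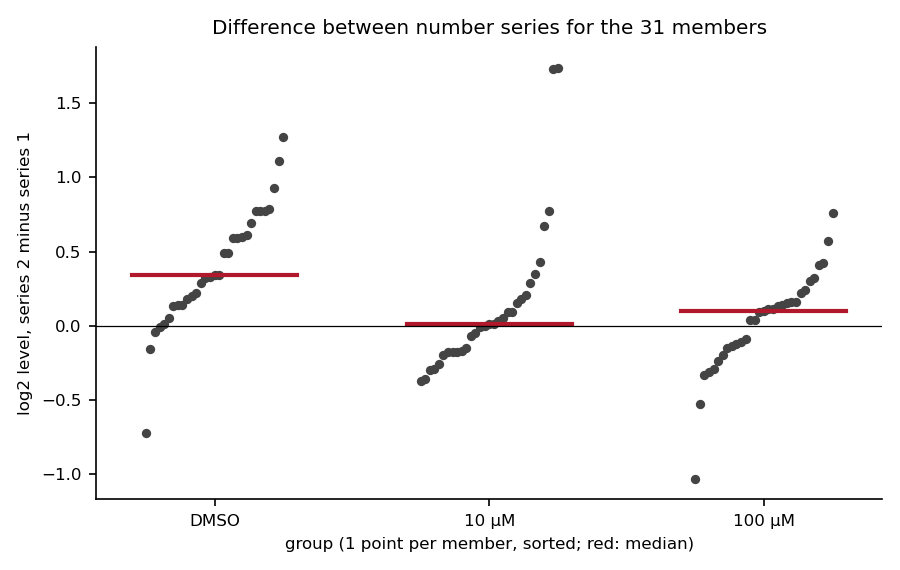
Log2 level in number series 2 minus series 1 within each group, 1 point per member in sorted order, with the median of the 31 members in red. The median is 0.34 in DMSO, 0.01 at 10 µM and 0.10 at 100 µM.

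The test of whether the dose change itself differed between the number series called 0 members at 10 µM (background 0.0414%) and 0 at 100 µM (background 0.00689%). The change was lower in series 2 for 24 of 31 members at each dose, against 46.9% of all genes at 10 µM and 51.1% at 100 µM. At an unadjusted p under 0.05, 7 members had a lower change in series 2 at 10 µM and 8 at 100 µM, against 6.68% and 3.87% of all genes, and 0 a higher one, against 3.56% and 2.21%. Cpt1a, Acadvl, Hadha, Acaa2 and Vnn1 were among them at both doses, with the same DMSO arrays in each. The lowest adjusted p was that of Vnn1, with a difference of -1.56 at 10 µM (SE 0.27, adjusted p = 0.0933) and -1.80 at 100 µM (SE 0.29, adjusted p = 0.139). Without 10 µM array 25 the first of these was called (adjusted p = 0.0279), and over the alternatives its lowest adjusted p of any member ran from 0.0279 to 0.402.

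Within series 1 alone, Ppara, Etfb, Etfdh, Hadh and Eci1 had every 100 µM array below both DMSO arrays, 5 of 31 members against 12.1% of all genes. Within series 2 alone this held for 19 members, against 14.4%, among them Etfb, Etfdh, Hadh and Eci1. At 10 µM it held for 2 members in series 1 (Eci1 and Pex11a), against 12.2%, and 8 in series 2, against 8.53%. Vnn1, Ech1 and Eci2 had positive values at 100 µM in series 1 (0.20, 0.34 and 0.16) and values of -1.60, -1.18 and -0.90 in series 2.

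**Figure D5:**
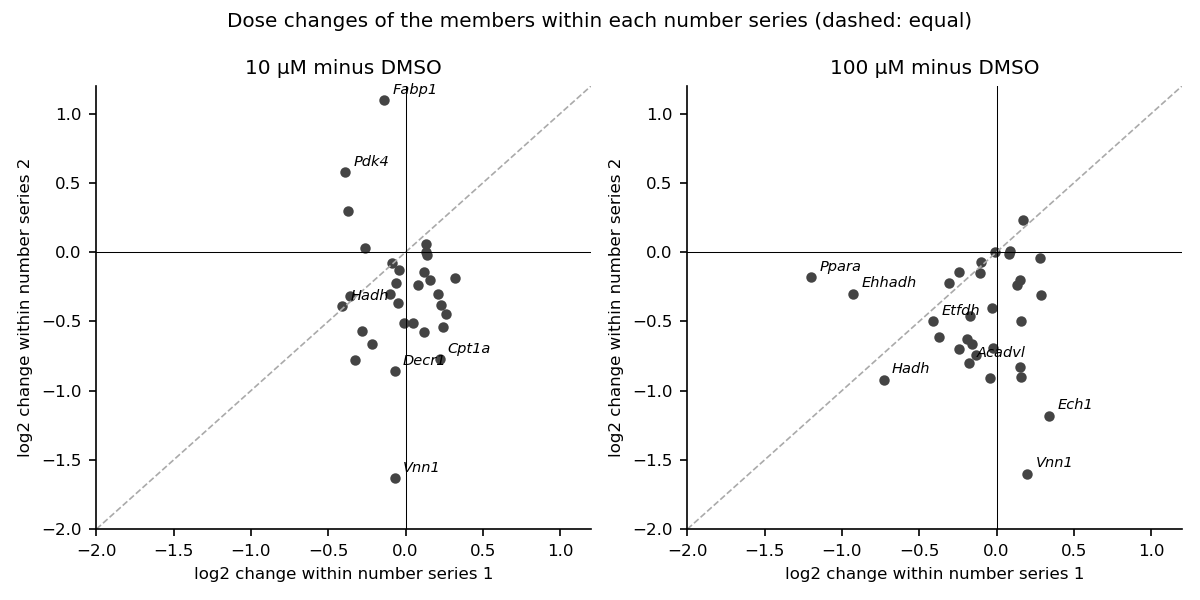
Log2 change against DMSO within number series 2 plotted against that within series 1, 1 point per member, at 10 µM (left) and 100 µM (right); the dashed line marks equal changes. At 100 µM Hadh and Etfdh lie below 0 in both series, while Vnn1 and Ech1 are above 0 in series 1 and below -1 in series 2.

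Other genes of these pathways, taken from 9 companion lists with 105 of 122 entries measured, were read beside the members. None was called in either dose comparison. Their counts stand beside 50.9% of all genes lower at 10 µM and 44.3% at 100 µM, and 3.82% and 3.42% lower at an unadjusted p under 0.05. Peroxisomal oxidation beyond the members had 12 of 16 measured genes lower at 10 µM (median -0.27, 5 at an unadjusted p under 0.05) and 14 of 16 at 100 µM (median -0.36, 6 under 0.05). Slc27a2, which activates very long chains, was at -0.87 (SE 0.24, adjusted p = 0.623) at 100 µM and Pecr, a trans-enoyl-CoA reductase, at -0.74 (SE 0.21, adjusted p = 0.638), with both lower in each series (-0.32 and -1.32, -0.55 and -0.91). Hsd17b4, the second multifunctional enzyme of the peroxisome, was at -0.73 (SE 0.20, adjusted p = 0.350) at 10 µM, with -0.17 and -1.18 within the series. Omega-oxidation had 6 of 8 genes lower at both doses, and Cyp4a3, a fatty acid omega-hydroxylase, was at -0.44 and -0.68 (SE 0.19, adjusted p = 0.628), with -0.42 and -0.90 within the series at 100 µM. Cyp4f1, another omega-hydroxylase, was at -0.44 at 100 µM (SE 0.18, adjusted p = 0.698), with -0.15 and -0.62 within the series.

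Of the 5 genes measured in the ketogenesis list, 4 were lower at both doses (medians -0.12 and -0.20), with 0 at an unadjusted p under 0.05. Acat1, which joins acetyl-CoA units, was at -0.18 (SE 0.12) and -0.27 (SE 0.14), and Slc16a1, a carrier of ketone bodies and lactate, at -0.22 (SE 0.17) and -0.20 (SE 0.19). Within the series at 100 µM they were at -0.03 and -0.47, and at 0.12 and -0.44. Peroxisome assembly genes were balanced, with 6 of 12 lower at 100 µM and a median of 0.00; Pex13 was at -0.57 (SE 0.20, adjusted p = 0.663) there, with -0.30 and -0.79 within the series, and Pex19 at 0.24 (SE 0.10, adjusted p = 0.610) at 10 µM, with 0.34 and 0.16.

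Regulators and partners of the receptor had 5 of 12 genes lower at 100 µM (median 0.02). Ppargc1a, a coactivator of oxidative genes, was at -0.88 (SE 0.29, adjusted p = 0.649), with -0.66 and -1.04 within the series, and Lpin1, a phosphatidate phosphatase and coactivator, at 0.56 (SE 0.28, adjusted p = 0.745), with 0.03 and 0.97. Pparg, a receptor of the same family, was at 0.20 at 10 µM (SE 0.12, adjusted p = 0.765), with 0.24 and 0.14. Uptake, activation and lipid droplet genes had 11 of 17 lower at both doses. Cd36, a fatty acid translocase, was at -1.65 (SE 0.58, adjusted p = 0.495) and -1.73 (SE 0.64, adjusted p = 0.682), with 0.34 in series 1 and -3.43 in series 2 at 100 µM. These values came from the brighter of its 2 probe sets. The other had means of 6.42 in DMSO, 5.42 at 10 µM and 5.28 at 100 µM. Mgll, the monoacylglycerol lipase, was at -0.99 (SE 0.23, adjusted p = 0.317) at 10 µM, with -0.34 and -1.48 within the series. Beside Cd36 stand the macrophage markers given above, 10 of 11 lower at 100 µM, whose part was not tested.

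Of the genes that set malonyl-CoA, the inhibitor of Cpt1a, and the other Cpt1 forms, 4 of 9 were lower at 100 µM (median 0.03). Cpt1b, the muscle form, was at -0.50 (SE 0.21, adjusted p = 0.708), with -0.19 and -0.71 within the series, and Cpt1c, the brain form, at 0.31 (SE 0.11, adjusted p = 0.649), with 0.14 and 0.45. Mlycd, which breaks malonyl-CoA down, was at 0.29 (SE 0.11, adjusted p = 0.525) at 10 µM, with 0.03 and 0.48. Other mitochondrial acyl-CoA enzymes had 11 of 13 lower at both doses (medians -0.26 and -0.29). Acot9, a thioesterase, was at -0.48 at 10 µM (SE 0.15, adjusted p = 0.447), with -0.05 and -0.83 within the series, and at -0.42 at 100 µM. Pccb, a subunit of propionyl-CoA carboxylase, was at -0.29 and -0.44 (SE 0.16, adjusted p = 0.682), with -0.50 and -0.33 within the series at 100 µM. Further targets and relatives had 10 of 13 lower at both doses (medians -0.10 and -0.11), with Pdk3, another pyruvate dehydrogenase kinase, at -0.46 and -0.50 (SE 0.19, adjusted p = 0.682) and Vnn3, a relative of Vnn1, at -0.22 and -0.42 (SE 0.20, adjusted p = 0.742). Within the series at 100 µM Pdk3 was at 0.08 and -0.99 and Vnn3 at -0.10 and -0.63.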

How the data were processed

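Total RNA of 15 biochips was measured on 1 array each. The authors deposited log2 expression values, 1 column per array, made with RMA (background correction, quantile normalization and probe summary) and Partek per the submitters' processing notes; no version or setting of either is given in the sources used here, nor their order. Values were used as deposited. Of 29214 probe sets, 15633 had annotation, 323 with several genes; 15310 had 1 gene, of which 15279 matched RefSeq GRCr8 identifiers, and 13904 without a single gene were left out. The 527 genes with several probe sets were represented by the brightest, which left 14506 genes. The table held 0 columns of other samples.

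Groups were compared with limma 3.58.1 in R 4.3.3 (lmFit, eBayes, Benjamini-Hochberg over all genes) with number series as a block (11 residual degrees of freedom); values between or within series of a group came from 6 cells of group by series (9 degrees of freedom) or, for dose changes within a series, from that series alone. Log2 changes are treated minus DMSO. The scripts were tested on simulated data. Arrays have no read depth, so their number limits precision, and no detection value was used.

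Every measured member is reported; of each companion list, the 2 genes of lowest p at 100 µM and the 1 of lowest p at 10 µM are named. Members, roles and lists were chosen with earlier results of these data known. The comparison of DMSO arrays between series and the setting without the 3 arrays of lowest quality weight were chosen after the values were seen. Alternatives were no series block, array quality weights, renewed quantile normalization, dim genes left out, mean of a gene's probe sets, eBayes with trend and robust, only the groups compared, each series alone and each array left out.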

Additional observations from a re-analysis of the deposited data

Results flagged for a closer look

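Within a group, a member's highest or lowest array was marked when its distance to the nearest other array was large for the group's range by Dixon's criterion at 95%. Of 93 member and group combinations tested, 11 were marked, and chance alone marks about 5% of such groups. In 10 µM array 23, 5 were marked: Cpt2 (6.39) and Acadl (10.35) were low, and Hadh (7.76), Eci1 (9.70) and Pex11a (9.05) were high. In 10 µM array 24, Slc25a20 (7.88) was low and Acadvl (8.96) high. The others were Slc25a20 in 100 µM array 15 (7.82, low), Etfb in DMSO array 21 (9.74, high), Hadh in DMSO array 10 (6.88, low) and Acot1 in DMSO array 22 (3.46, high). No member's dose change differed between the number series at an adjusted p under 0.05 by limma.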

How the results depend on the processing

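No paired analysis was possible because the groups share no title number. The counts of called members at both doses and between them were 0 under every alternative run except that 1 (Vnn1) was called at 10 µM in series 2 alone. The median change at 10 µM was -0.30 in series 2 alone and -0.25 to -0.10 with 1 array left out. At 100 µM the median was -0.04 in series 1 alone and -0.50 to -0.19 with 1 array left out. Between series, Angptl4 was called (1) with quality weights and with dim genes left out. The difference of the 10 µM change between series called 0 to 1 with 1 array left out (1, Vnn1, without 10 µM array 25). The DMSO comparison between series called 5 with weights, 2 after renewed quantile normalization, 5 without the 3 arrays of lowest weight, and 0 to 3 with 1 array left out.

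The sign of some members turned, among them Vnn1, Ech1, Eci2 and Cpt1a at 100 µM and Fabp1 at 10 µM. In series 1 alone the 10 µM change was -0.37 for Ppara, -0.14 Fabp1, 0.26 Acsl1, 0.22 Cpt1a, 0.21 Slc25a20, 0.05 Acadvl, 0.08 Acadl, 0.16 Acadm, 0.24 Hadha, 0.23 Hadhb, 0.12 Acaa2, -0.39 Pdk4 and 0.12 Plin2, and the 100 µM change 0.15 for Cpt1a, 0.15 Acads, 0.34 Ech1, 0.13 Acot2, 0.16 Eci2, 0.20 Vnn1, 0.16 Pdk4 and 0.29 Plin2. In series 2 alone Crat was at -0.02, Echs1 -0.19 and Pex11a 0.03 at 10 µM, and Fabp1 -0.01 and Acot1 -0.04 at 100 µM. With quality weights the 10 µM change was -0.05 for Ppara, 0.04 Slc25a20, 0.03 Cpt2, 0.03 Acadl, -0.01 Acads, 0.02 Hadhb and -0.26 Pdk4, and Fabp1 was at -0.16 at 100 µM. Without the 3 arrays of lowest weight it was -0.20 for Ppara, -0.17 Fabp1, 0.13 Slc25a20, 0.04 Cpt2, 0.08 Acadl, 0.11 Hadhb and -0.36 Pdk4, and Fabp1 was at -0.14 at 100 µM. Without the block Fabp1 was at -0.01 and Cpt2 at 0.01 at 100 µM, and after renewed normalization Cpt2 at 0.03. With 1 array left out, sign changed at 10 µM for Ppara (-0.09 to 0.15), Acsl1 (-0.30 to 0.01), Slc25a20 (-0.13 to 0.10), Cpt2 (-0.18 to 0.08), Acadl (-0.17 to 0.05), Acadm (-0.12 to 0.07), Acads (-0.03 to 0.11), Echs1 (-0.11 to 0.11), Hadhb (-0.16 to 0.07), Pdk4 (-0.23 to 0.36) and Plin2 (-0.15 to 0.06), and at 100 µM for Fabp1 (-0.19 to 0.54), Cpt2 (-0.07 to 0.07), Acadl (-0.03 to 0.07), Acads (-0.13 to 0.04), Pdk4 (-0.43 to 0.09), Plin2 (-0.14 to 0.05) and Acot1 (-0.02 to 0.20). The cause was not tested. Acot1 is dim, and 4 arrays at 100 µM limit precision.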
